A study of Dreissena polymorpha with 11 samples.

Results

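The comparison set the gonads of adult zebra mussels against the digestive gland on 5 of the 11 arrays of the series. The gonad group held male gonad 1 and 2 and female gonad 1, and the control tissue was digestive gland 1 and 2. Arrays were assigned to the groups by tissue label, so 3 arrays stood against 2. The 2 gill arrays were left out so that probes dim in gill would not set the result, and gill, larvae and half-body arrays enter only the description of sequences and 1 alternative fit of all arrays but larvae 1.

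The zebra mussel (Dreissena polymorpha) is a freshwater bivalve. All animals were untreated, and the labels name no strain, genotype or adult age. The larvae are labelled as 24 h old. Trizol-extracted total RNA was cleared of DNA with DNase, passed through a Bioanalyzer for quality and hybridised in 1 colour, Cy3. For the digestive gland, the gender field names replicate 1 female and replicate 2 male, whereas the source field calls both female. Whether arrays of 1 tissue hold RNA of different animals is in no label, so a p-value here reflects the spread between these arrays alone, and that spread may be technical. Female gonad has 1 array.

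Zebra mussels have separate sexes. The gonad makes eggs or sperm and lies in the visceral mass beside the digestive gland, which digests food, takes up and stores nutrients and handles foreign chemicals. Germ cells of both sexes carry RNA that other tissues largely lack, and eggs also store RNA for the embryo. In bulk tissue, fewer cells of a type and less RNA per cell cannot be told apart.

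The array carried 13654 probes for 3541 sequences. Each sequence is known by an identifier, and the first letters of the identifier are called its series here: 2864 sequences begin with EY, 437 with AM, 135 with AJ and 105 with other characters. The symbol RXR is the only gene name, so neither a sequence nor a tissue label could be checked against marker genes, and no role is given to any identifier. No spot was saturated, and between 4508 and 5631 probes were well above background on each of the 5 arrays by the scanner software's own call. Levels are given as relative log2 signal, the log2 processed signal minus the array's 75th percentile over the 4047 probes that all 5 arrays detected above background. A level compares arrays for 1 sequence, not 1 sequence with another.

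No sequence separated gonads from digestive gland past the test, and the arrays resembled each other by replicate number more than by tissue. Across the 2168 sequences tested, digestive gland 1 correlated with male gonad 1 at r = 0.962 and digestive gland 2 with male gonad 2 at r = 0.963. The 2 digestive gland arrays correlated at r = 0.861 and the 2 male gonad arrays at r = 0.841. Female gonad 1 had r = 0.962 with digestive gland 1 and r = 0.841 with male gonad 2. These values are across sequences, which share an array and are not replicates.

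Much of that gap lay in the AM series. Its median relative log2 signal over 414 tested sequences was -8.78 on digestive gland 1 and -4.12 on digestive gland 2. In the gonads it was -9.64 on male gonad 1, -4.08 on male gonad 2 and -9.00 on female gonad 1. The series was therefore high on both arrays numbered 2 and low on the other 3, and the tissue groups overlapped. The EY series, with 1584 tested sequences, kept medians between -6.31 and -5.64 on the same arrays.

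**Figure D1:**
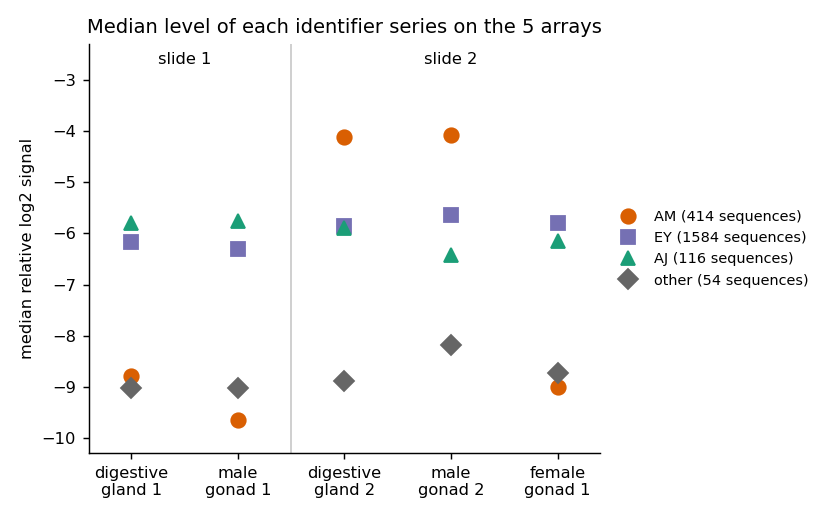
Median relative log2 signal (vertical axis) of the tested sequences of each identifier series on the 5 arrays (horizontal axis), split by slide. The AM medians are -4.12 and -4.08 on digestive gland 2 and male gonad 2 and between -9.64 and -8.78 on the other 3 arrays.

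The files place digestive gland 1 and male gonad 1 on slide 1, and digestive gland 2, male gonad 2 and female gonad 1 on slide 2. Female gonad 1 thus shared a slide with the arrays that were high in AM and had an AM median as low as those of slide 1. On the same slide the AM median was -10.34 in gill 2, -10.78 in larvae 2 and -6.26 in the second of the half-body arrays. The first of the half-body arrays, on slide 1, had -7.44. A permutation test on the 5 AM medians gave a gonad minus digestive gland difference of -1.12 with an exact two-sided p = 0.6, where 10 splits allow no p below 0.2. Of the 414 AM sequences, 252 were more than 2 log2 units higher on digestive gland 2 than on female gonad 1, and 32 were so much lower. Moves of that size were as frequent within a tissue. From digestive gland 1 to 2, 249 rose and 35 fell by more than 2, and from male gonad 1 to 2, 300 rose and 2 fell.

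With AM left out before scaling, 1754 sequences remained and the arrays drew together. Digestive gland 1 and 2 then correlated at r = 0.954, male gonad 1 and 2 at r = 0.949, and digestive gland 2 and male gonad 2 at r = 0.979. Even so, digestive gland 1 was closer to male gonad 1 (r = 0.962) than to digestive gland 2. Female gonad 1 correlated at r = 0.962 with digestive gland 1 and at r = 0.940 with male gonad 2.

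The fit of gonads against digestive gland with limma called 0 of 5393 probes at an adjusted p under 0.05 (0% called), with 94 probes at an unadjusted p under 0.05. With AM left out it called 0 of 4232 probes, with 105 at an unadjusted p under 0.05. Fitted on 1 value per sequence, it called 0 of 2168 sequences, and 37 had an unadjusted p under 0.05. Without AM it called 0 of 1754 sequences, and 43 had an unadjusted p under 0.05. The median standard error of a probe's log2 difference was 0.647 with AM and 0.546 without. With slide as a block these counts stayed at 0.

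Without the call, the arrays can still be described by whether the groups overlap. All 3 gonad arrays lay above both digestive gland arrays in 142 of 2168 sequences (6.55% of those tested) and below both in 108 (4.98%). With AM left out, 106 of 1754 sequences lay above (6.04%) and 114 below (6.5%). The balance between higher and lower depended on the scaling. With AM left out, it was 61 to 164 when each array was scaled on its 75th percentile over all probes and 63 to 179 when scaled on the median. Those scalings moved the median difference of all sequences from 0.06 to -0.10 and -0.13, so neither direction is given as the more frequent one.

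The difference between male gonad and digestive gland on slide 1 was only weakly related to that on slide 2. Across the 1754 sequences without AM, the difference male gonad 1 minus digestive gland 1 (slide 1) correlated with male gonad 2 minus digestive gland 2 (slide 2) at Pearson r = 0.210 and Spearman rho = 0.248. With AM, over 2168 sequences, r was 0.0848 and rho 0.189. Of the AM sequences, 69 were more than 2 log2 units higher in male gonad 2 than in digestive gland 2, and 2 were so in male gonad 1 against digestive gland 1. More than 2 log2 units lower were 5 and 25 of them in the same order, so the larger AM moves ran mostly upward on slide 2 and mostly downward on slide 1. The pairs share no array, but the points of each share its 2 arrays.

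**Figure D2:**
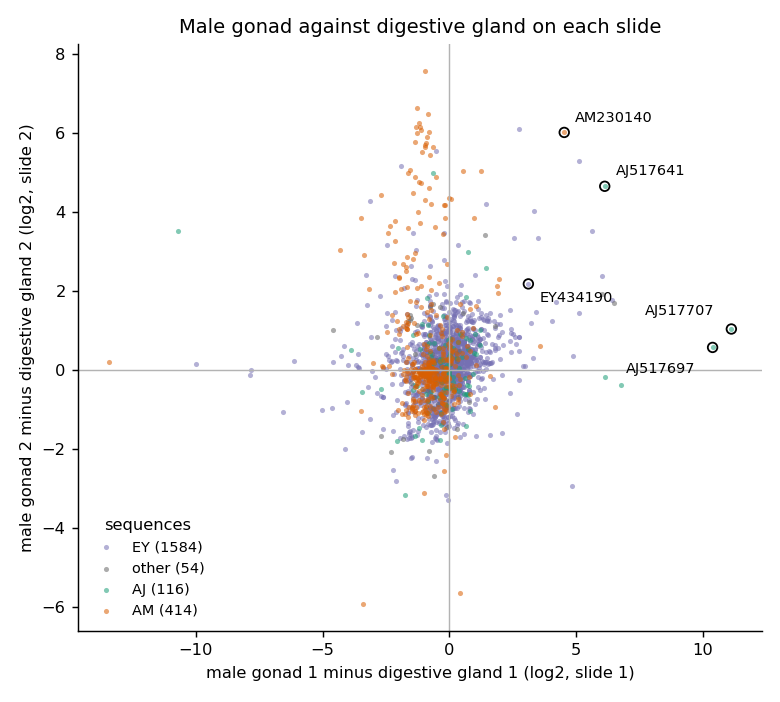
Log2 difference male gonad minus digestive gland for each of 2168 sequences, on slide 1 (horizontal axis) and slide 2 (vertical axis), coloured by identifier series; 5 sequences described in the text are circled. AJ517641 and AM230140 are far above 0 on both axes, and AJ517707 and AJ517697 lie above 10 on the horizontal axis and close to 0 on the vertical axis.

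Sequences whose groups do not overlap were ranked by the gap between the lowest array of the higher group and the highest array of the lower group. Only sequences with 2 or more tested probes, at least 75% of them without overlap, were ranked. This left 34 sequences higher in the gonads and 39 higher in the digestive gland, and the first 12 in each direction are named. Of the 34 and of the 39, 4 each were AM sequences. Outside AM, 1180 sequences had 2 or more tested probes. The number with AM is not given, so neither count is read as a share. The last named gap was 0.51 and the next 0.49 log2 units for gonads, and 0.61 and 0.56 for digestive gland. Since the choice used these values, the direction and the lack of overlap are descriptions, and each of the 24 had a limma adjusted p of 0.999.

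AJ517641 stood first among the gonad-higher sequences. Its relative log2 signal was -10.05 and -7.80 on digestive gland 1 and 2, -3.93 and -3.15 on male gonad 1 and 2, and -4.41 on female gonad 1. Every gonad array was above both digestive gland arrays, and the male and female gonads were closer to each other than to either digestive gland array. The gonad mean was -3.83 ± 0.63 (SD, n = 3) and the digestive gland mean -8.92 ± 1.59 (SD, n = 2), a difference of 5.09 ± 0.85 (SE), or 34.2-fold. All 4 of its probes were well above background on digestive gland 2 but only 2 on digestive gland 1, where the level is partly one of background. The 4 probes gave differences between 4.81 and 5.21. Over the settings tried the difference ran from 3.60, with normexp background correction, to 6.22, without digestive gland replicate 2.

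The difference was present on both slides, at 6.12 for male gonad 1 on slide 1 and 4.65 for male gonad 2 on slide 2. The half-body arrays had -5.63 and -3.56, and the gill arrays -11.54 and -11.35. Half-body levels were thus near the gonad levels and gill levels under both digestive gland levels. This sequence was called by limma only when dim probes were kept and AM was left out: 3 of its probes had an adjusted p of 0.0433 and the sequence a difference of 5.06 ± 0.67 (SE) with an adjusted p of 0.00126.

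EY434190 had -4.95 and -4.55 in digestive gland, -1.84 and -2.37 in male gonad and -1.78 in female gonad. The 3 gonad arrays lay within 0.6 of each other and apart from digestive gland by more than 2. Its difference was 2.75 ± 0.42 (SE), or 6.75-fold, and with dim probes kept and AM left out limma called it too, at 3.59 ± 0.61 (SE) and an adjusted p of 0.0171. Gill did not share one level, with -2.10 on gill 1 and -7.68 on gill 2.

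AM230140 belongs to the series that shifts between arrays. It had -10.98 and -9.25 in digestive gland, -6.46 and -3.24 in male gonad and -5.70 in female gonad. The groups did not overlap, unlike those of the AM medians, and the difference was 4.98 ± 1.19 (SE). Gill had -11.64 and -11.44, and all 4 probes kept the groups apart. With normexp its difference was 2.92. The other named AM sequence, AM230223, had -11.77 and -11.85 in digestive gland, -9.86 and -9.91 in male gonad and -7.92 in female gonad. Of its 4 probes, 0 and 1 were above background on digestive gland 1 and 2, and its difference of 2.58 was 1.04 with a common floor and 0.49 with normexp.

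EY434563 was not well above background on either digestive gland array in its 2 tested probes. It had -10.21 and -13.18 there, -6.88 and -9.17 in male gonad and -6.15 in female gonad. No fold is given, since the dim side is at background and the size of the log2 difference hung on how background was treated. It was 4.30 in the main setting, 2.83 with a common floor, 2.22 with no filter on dim probes, 1.37 with normexp and 2.81 without digestive gland replicate 2.

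In EY433942 and AJ517619 the female gonad level also lay above both male ones. EY433942 had -7.02 and -9.26 in digestive gland, -5.58 and -5.07 in male gonad and -3.16 in female gonad. AJ517619 had -3.95 and -4.93 in digestive gland, -2.52 and -2.35 in male gonad and -0.83 in female gonad. On slide 1 the differences from digestive gland were 1.44 for EY433942 and 1.43 for AJ517619. In AJ517619 the gill arrays, at -0.02 and -0.70, lay above every gonad array. EY436773 had the widest spread among gonads, at -8.58 and -4.98 in male and -10.12 in female gonad, against -11.33 and -11.08 in digestive gland. Its difference of 3.31 was 0.20 with no filter on dim probes, 1.53 with normexp and 1.86 without male gonad replicate 2.

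The other 4 of the 12, EY436938, EY436708, EY436108 and EY433912, had differences between 0.82 and 1.26. With normexp that of EY436938 was 0.51 and that of EY436708 0.13, and with a common floor they were 0.57 and 0.45. EY433912, at 1.26, had 0.81 with no filter on dim probes and 0.83 without digestive gland replicate 1. EY436108 had levels of -1.91 and -1.73 in digestive gland, -1.09 and -0.84 in male gonad and -1.08 in female gonad, over 5 tested probes. Across the 12, the differences ran from 0.82 to 5.09 with a median of 2.67, beside a median of 0.05 over all 2168 sequences. In 9 of the 12, both half-body arrays were above both digestive gland arrays, and in 3 both gill arrays were below all 5 arrays. The share of either pattern over all tested sequences is not given, so neither count is read as particular to these 12.

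**Figure D3:**
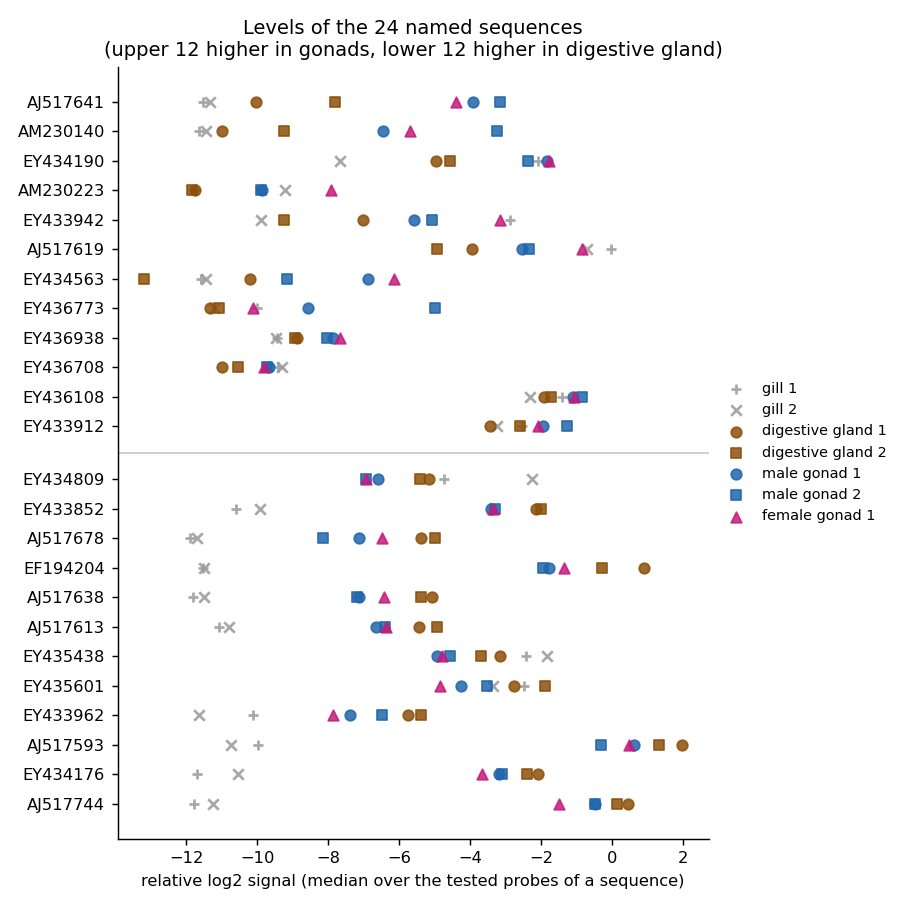
Relative log2 signal (horizontal axis) of the 24 named sequences, the 12 higher in gonads above the line and the 12 higher in digestive gland under it; brown, blue and pink points are the digestive gland, male gonad and female gonad arrays and grey crosses the gill arrays. In each row the 3 gonad points lie on 1 side of both digestive gland points, which the choice of sequences fixes.

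The 12 digestive-gland-higher sequences differed by less, from 1.07 to 2.07 log2 units, with a median gonad minus digestive gland difference of -1.47. They held 6 EY, 5 AJ and 1 other identifier and no AM sequence. In every one, all tested probes kept the groups apart, against 9 of the 12 gonad-higher sequences. The rule asked this of at least 75% of the tested probes, so a sequence with 2 could enter only with both apart. Nothing is therefore read from this contrast.

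AJ517678 had the largest of these differences. Its levels were -5.38 and -4.98 in digestive gland, -7.12 and -8.14 in male gonad and -6.48 in female gonad. Digestive gland was above the nearest gonad array by over 1 log2 unit, and the fitted difference was -2.07 ± 0.62 (SE), with digestive gland 4.19-fold higher. Gill was lower still, at -11.89 and -11.69.

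EF194204 had 0.90 and -0.28 in digestive gland, -1.78 and -1.95 in male gonad and -1.35 in female gonad, over 5 tested probes. The digestive gland arrays lay above all gonads although they differed from each other by more than the gonads did. The difference was -2.004 ± 0.53 (SE), and digestive gland was 4.01-fold higher. Gill had -11.54 and -11.51, while the half-body arrays had 1.37 and -0.16, near the digestive gland levels.

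EY433852 had the smallest spread among gonads of the 24 named sequences, with an SD of 0.05. It had -2.15 and -2.00 in digestive gland, -3.40 and -3.30 in male gonad and -3.36 in female gonad. Both sexes of gonad lay within 0.10 of each other, and digestive gland was higher by 1.28 ± 0.35 (SE), a 2.43-fold difference. EY434809 was first by the gap, with -5.15 and -5.40 in digestive gland, -6.59 and -6.93 in male gonad and -6.94 in female gonad. Its gill levels of -4.75 and -2.26 were above those of digestive gland.

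Among the remaining AJ sequences, AJ517638, with -5.07 and -5.39 in digestive gland, had -7.13, -7.18 and -6.41 in the gonads. AJ517613 had -5.44 and -4.93 in digestive gland against -6.65, -6.39 and -6.38 in the gonads. AJ517593 ran from -0.32 on male gonad 2 to 1.97 on digestive gland 1. The tightest group border was that of AJ517744, with 0.44 and 0.14 in digestive gland and -0.47, -0.47 and -1.49 in the gonads.

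The remaining EY sequences, EY435438, EY435601, EY433962 and EY434176, had differences of -1.34, -1.89, -1.68 and -1.07. With no filter on dim probes, EY435438 had -0.33, EY433962 -0.79 and EY434176 0.04, the last with the sign turned. Leaving out gill from the comparison did not keep gill-dim sequences out of this list. In 9 of the 12 both gill arrays were below all 5 arrays compared, and in 5 no tested probe was above background on either gill array. Among the 12 gonad-higher sequences these counts were 3 and 2. No test was made of that difference. In 7 of the 12 digestive-gland-higher sequences, both half-body arrays lay below both digestive gland arrays. The shares of these gill and half-body patterns over all tested sequences are not given, so nothing is read from the counts.

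The gonad group held both sexes, with a single female array. Fitted with limma in 1 model of 3 group means, male gonad against digestive gland gave 0 calls among 5393 probes and 80 at an unadjusted p under 0.05. Female gonad against digestive gland gave 0 calls and 126 at an unadjusted p under 0.05, and female against male gonad 0 calls and 191. Female gonad 1 is assumed there to vary like the other groups.

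With slide as a block, which leaves 1 residual degree of freedom, limma called 14 probes higher (0.26%) and 497 lower (9.22%) in female gonad than in digestive gland. Of the lower calls 480 were AM probes, which is 41.3% of the 1161 AM probes tested. In female against male gonad, the same fit called 15 probes higher (0.278%) and 438 lower (8.12%), 426 of the lower ones AM. With AM removed before scaling and the slide block kept, both contrasts had 0 calls with limma, and their lowest adjusted p values were 0.415 and 0.304. Nearly all calls were thus in the series whose median also differed between arrays of 1 tissue.

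Outside AM, female gonad 1 was above both male gonad arrays in 594 of 1754 sequences (33.9%) and below both in 450 (25.7%). A gap of more than 1 log2 unit, in at least 75% of the tested probes of sequences with 2 or more, was found with the female array higher in 69 of 1180 sequences (5.85%) and with the male arrays higher in 59 (5%). With 1 female array, these counts describe this array and not female gonads in general.

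EY436592, first by the gap, had -4.83 in female gonad against -12.25 and -12.48 in male gonad, where neither of its tested probes was above background. Its gap is therefore measured against background signal. EY434180 had -2.27 in female gonad against -9.60 and -9.56 in male gonad, where 4 of its 5 probes were above background on each array. EY435552 had -6.02 in female gonad against -12.61 and -13.25 in male gonad, where 0 and 1 of its 3 probes were above background. All 3 sequences were also higher on digestive gland 1, labelled female by gender, than on digestive gland 2, labelled male.

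For EY434180 the digestive gland levels were -5.02 and -9.76, the second being close to the male gonad levels. For EY436592 they were -8.57 and -12.59, and for EY435552 -8.57 and -12.45, with no tested probe of either above background on digestive gland 2. The half-body arrays, of which the first is labelled female and the second male, did not follow: EY434180 had -11.76 and -9.54 there.

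Among male-higher sequences AJ517707 and AJ517697 had the largest gaps. AJ517707 had 2.09 and -0.13 in male gonad, -8.17 in female gonad, -9.03 in digestive gland 1 and -1.17 in digestive gland 2. AJ517697 had 1.09 and -0.19 in male gonad, -7.61 in female gonad, -9.28 in digestive gland 1 and -0.76 in digestive gland 2. Both were therefore high in the male gonads and in the digestive gland labelled male by gender, and low in female gonad and the digestive gland labelled female. In gill the array labelled female was the higher one. Gill 1 and 2 had -5.21 and -8.50 for AJ517707, and -6.08 and -7.59 for AJ517697.

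Both half-body arrays were high for these 2 sequences, with 1.33 and 1.54 for AJ517707 and 1.002 and 0.38 for AJ517697, so the array labelled female did not differ from the one labelled male in the way the gonads did. Against digestive gland, male gonad 1 was higher by 11.11 and male gonad 2 by 1.04 log2 units for AJ517707. The third male-higher sequence, EY436953, with -4.06 and -5.17 in male gonad and -10.15 in female gonad, had -2.53 on digestive gland 1 and -7.80 on digestive gland 2, the opposite order.

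Over the whole lists, digestive gland 1 was above digestive gland 2 in 46 of the 69 female-higher sequences (66.7%) and in 24 of the 59 male-higher ones (40.7%). It was so in 538 of all 1180 sequences (45.6%). In the half-body pair the array labelled female was above the one labelled male in 23 of 69 (33.3%) and 33 of 59 (55.9%), beside 525 of 1180 (44.5%). In the gill pair, with the first labelled female and the second male by gender, the first was above the second in 32 of 69 (46.4%) and 31 of 59 (52.5%), beside 534 of 1180 (45.3%). Neither of these pairs thus had the order seen in the digestive gland pair. Across the 1180 sequences, female gonad 1 minus the male mean correlated with digestive gland 1 minus 2 at r = 0.273 and rho = 0.111. With the half-body pair it correlated at r = -0.0243 and with the gill pair at r = -0.153. Female gonad 1 minus male gonad 2, both on slide 2, correlated with digestive gland 1 minus 2 at r = 0.448 and rho = 0.410. Those gonad arrays differ in replicate number as well as sex. Since the digestive gland arrays also differed in slide and replicate number, labelled sex, slide and number cannot be told apart in that pair. Female gonad 1 lay on slide 2, as did digestive gland 2, but shared its number with digestive gland 1. The half-body arrays, labelled female and male, lay on slides 1 and 2 in that order, as the digestive gland arrays did. The gill arrays lay on slides 3 and 2. Which of these the order in digestive gland followed was not tested.

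**Figure D4:**
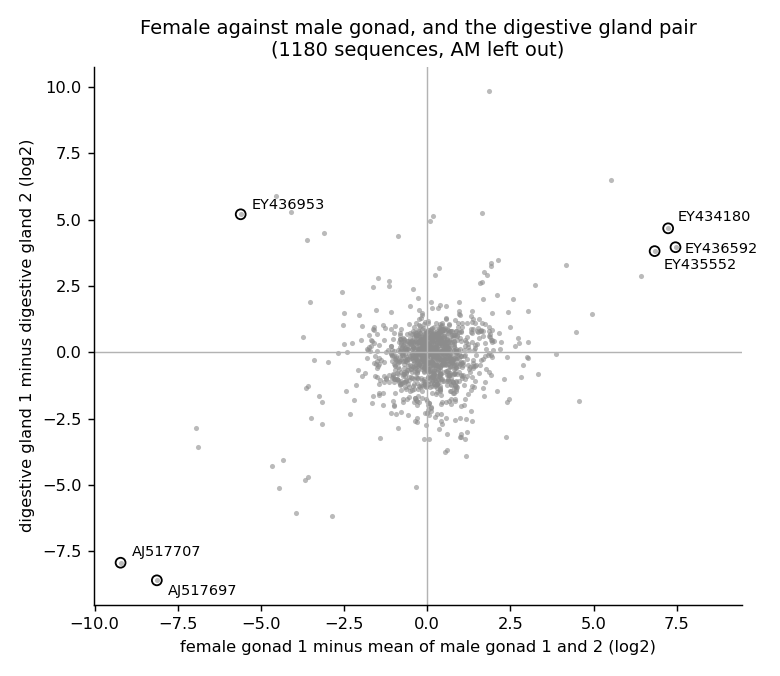
Log2 difference of female gonad 1 from the mean of the 2 male gonad arrays (horizontal axis) against that of digestive gland 1 from digestive gland 2 (vertical axis), 1 point for each of 1180 sequences outside AM; the 6 named sequences are circled. AJ517707 and AJ517697 lie far below 0 on both axes and the 3 named female-higher sequences above 0 on both, while EY436953 has opposite signs.

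In some sequences the sexes lay on opposite sides of digestive gland. In 64 of the 1180 sequences female gonad 1 was above both digestive gland arrays and both male arrays below both, and in 41 the reverse held. EY435552 is one of these: its mean over the 3 gonads differed from digestive gland by -0.12 ± 2.70 (SE), while female gonad alone was 4.48 above the digestive gland mean. Male gonad and digestive gland 2 were near background for this sequence, so the place of male gonad below digestive gland 2 is not a measured difference.

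Detection gave few probes restricted to a tissue. On all 3 gonad arrays and neither digestive gland array, 11 of the 13654 probes (0.0806%) were well above background, from 7 sequences. Of these probes 6 were AM, beside 671 of the 4047 probes above background on all 5 arrays. With so few probes, nothing is read from the AM count. The reverse pattern held for 6 probes (0.0439%) from 6 sequences. AM230223 had 3 of its 4 probes in the first set, EY434563 2 of 4 and AM230275 2 of 5.

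Female gonad alone among the 5 arrays had 73 of the 13654 probes (0.535%) well above background, from 64 sequences. The 2 male arrays alone had 19 (0.139%) from 18 sequences. The female set asked for detection on 1 array and the male set on both male arrays, so the counts are not compared. AJ517649 had all 4 of its probes in the female set. Its level was -9.03 in female gonad, -12.40 and -13.47 in digestive gland and -12.59 and -13.08 in male gonad. None of the 4 was well above background on larvae 2 or on the gill or half-body arrays, and this detection rests on 1 array.

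RXR, the retinoid X receptor, is a nuclear receptor that partners other nuclear receptors at DNA. All 6 of its probes were tested, and their median levels were -9.65 and -10.80 in digestive gland, -9.78 and -11.55 in male gonad and -9.55 in female gonad. The groups overlapped, with both arrays numbered 2 lower than the others. Of the 6 probes, 4 were above background on digestive gland 2 and 2 on male gonad 2, where the level is partly one of background. On digestive gland 1, male gonad 1 and female gonad 1 these counts were 6, 5 and 6. The difference was -0.07 ± 0.82 (SE), with single probes between -0.69 and 0.09, and the limma adjusted p was 0.999.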

How the data were processed

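Per the file headers, the deposited intensity values of each array came from Agilent Feature Extraction 10.5.1.1, which subtracted background but applied no scaling between arrays. The authors also deposited a log2 value table, whose scale and centring are not given in the sources used here. It served as an alternative; its columns for these arrays ran in the same direction as the scanner values.

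Outlier and control spots were left out and log2 values of a probe's spots averaged. Each array was reduced by its 75th percentile over probes well above background on all 5. Probes well above background on at least 2 of the 5 arrays were tested, with no regard to group. A sequence's level is the median over its tested probes, named by the first section of the systematic identifier. limma 3.58.1 (R 4.3.3; lmFit, eBayes, Benjamini-Hochberg) was used. A run on simulated data drew independent noise for each array, so it did not cover arrays that deviate together. The spread between 5 arrays limits precision.

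Sequences were named by the gap rule stated with them, with 12 in a direction and at most 4 AM, 3 in each direction between the sexes, and RXR. AJ517649, AM230275, EY436659, EY434330 and EY433984 were added after their values were seen. The arrays, lists and rules were chosen with earlier results of these data known. Normexp used the median spot signal, since the files hold no mean signal column. No sequence name was found in the RefSeq gene table (assembly UMN_Dpol_1.0), and no sequence is printed.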

Additional observations from a re-analysis of the deposited data

Results flagged for a closer look

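In 4 sequences female and male gonad lay on opposite sides of digestive gland, with every male array on one side of both digestive gland arrays and the female array on the other. In EY435552 female gonad 1 minus the digestive gland mean was 4.48 and the male mean minus the digestive gland mean -2.42. Of its 3 tested probes, 0 were above background on digestive gland 2, 0 on male gonad 1 and 1 on male gonad 2, so the male side is one of background. In EY436659 these differences were 3.70 and -2.78, with 2 of 5 probes above background on each male array. Its probes disagreed, with the female array above both male arrays in 3 and below both in 2. In EY434330 the differences ran the other way, at -1.15 and 2.44, with 1 of 3 probes above background on female gonad 1 and on digestive gland 1. In EY433984 they were -1.93 and 1.74, with 1 of 5 probes above background on female gonad 1. The low side of each of the 4 thus lies at or near background, and its side of digestive gland is not firmly measured. In EY436659 and EY433984 digestive gland itself was above background in all 5 tested probes on both arrays. For these the limit is the low gonad side, whose distance from digestive gland is not measured. Of the 64 and 41 sequences of this kind, these had the largest gaps between the female array and the male arrays, 2 in each direction. The difference between the sexes was not tested for each sequence on its own, and the limma fit of female against male gonad on probes called 0 of 5393, with 191 at an unadjusted p under 0.05.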

How the results depend on the processing

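The 7 fits called 0 features under every alternative run, apart from the following. With dim probes kept and AM left out, limma called 3 probes and 2 sequences in gonads against digestive gland; with slide as a block, it called 511 probes in female gonad against digestive gland and 453 in female against male gonad. Leaving out each replicate in turn gave 0 calls, from 0 to 0. With AM, the counts of sequences without overlap were 88 higher and 43 lower with the percentile over all probes, and 76 higher and 63 lower with the median. Without AM they were 61 higher with the percentile over all probes, and 63 higher and 179 lower with the median. These overlap counts and the slide block without AM were chosen after seeing the data. Of 524 values of the 24 named sequences under other settings, 1 reversed: EY434176 gave 0.038 with no filter on dim probes against -1.07; the cause was not tested. Another 20 fell below the main value by over 1.5 times, from 11 sequences, and are given with those sequences. Normexp used the median in place of the mean spot signal.

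The replicate block called 0 in every fit (224 of 5393 probes at an unadjusted p under 0.05 in gonads against digestive gland). Same-numbered digestive gland and male gonad arrays deviated together at r = 0.771 with AM and 0.521 without. With 2 shared numbers, and female gonad 1 numbered 1 but on slide 2, the arrays are not shown to be paired. Probes near background and 5 arrays limit every value above.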
